A study of Sus scrofa with 2 samples.

Results

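The imprinted DLK1-DIO3 locus holds one of the largest groups of miRNA genes in mammals, and 17 of the 355 probes on the pig anterior pituitary arrays read miRNAs of that locus. They were chosen by name, as every probe with the prefix ssc-miR- whose number belongs to a miRNA known from the locus, with any letter or arm suffix. The arrays compared 20-day-old female Bama minipigs (YB), a small and highly inbred Chinese breed, with female Landrace pigs (YC) of the same age, a large and lean commercial breed. RNA from the anterior pituitaries of 3 pigs was pooled for each breed, and each pool was hybridized to 1 custom array, so differences among pigs of a breed are unknown and the breeds could not be compared by a test. The animals carried no treatment or transgene, and the comparison asked which pituitary miRNAs differ between a slow-growing and a fast-growing breed.

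At this locus the protein-coding genes DLK1, RTL1 and DIO3 are expressed from the paternal chromosome, and the noncoding RNA MEG3 and the miRNAs from the maternal chromosome. DLK1 encodes a transmembrane protein that restrains the differentiation of several cell types, DIO3 encodes the deiodinase that inactivates thyroid hormone, and the miRNAs are best known from brain, placenta and skeletal muscle. In the pituitary, MEG3 is known for being lost in human nonfunctioning adenomas. The arrays do not separate RNA of maternal and paternal origin, and the signal of a pooled tissue cannot tell fewer cells of a type from less RNA per cell.

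The members came from a pair of blocks within the locus. The first lies on the strand opposite RTL1 and is represented by ssc-miR-127, ssc-miR-136 and both arms of miR-432. These miRNAs match the RTL1 transcript perfectly because they are transcribed from its other strand, and they are known to direct its cleavage. The second, the long cluster that runs from miR-379 to miR-410, is represented by the other 13 members. In the RefSeq annotation of Sscrofa11.1, 6 of the 15 precursor names of the members were found. MIR127, MIR432 and MIR136 lay within the span of RTL1, in that order, after DLK1 and MEG3 in the order of the annotation. MIR376C, MIR376A and MIR381 were listed without a chromosome, as was DIO3. Their position relative to the other genes of the locus was therefore not given.

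The mature sequences of the RTL1 block are shown first, because its members gave signals that were nearly equal in the breeds or near the bottom of the scale. Each sequence is written 5′ to 3′ as the study lists it for the probe, with the seed (bases 2 to 8), the part that pairs with targets, in capitals.
ssc-miR-127: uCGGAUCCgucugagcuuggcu
ssc-miR-136: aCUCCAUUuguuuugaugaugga
ssc-miR-432-5p: uCUUGGAGuaggucauugggu
ssc-miR-432-3p: uGGAUGGCuccuccauggcu

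From the second block, the sequences of the members that differed most between the breeds are shown, together with those of the remaining miR-376 probes, written in the same way.
ssc-miR-376a: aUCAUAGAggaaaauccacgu
ssc-miR-376a*: gUAGAUUCuccuucuaugaguac
ssc-miR-376b: gUGGCUAUuccuucuauguuua
ssc-miR-376c: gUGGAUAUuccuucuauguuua
ssc-miR-369: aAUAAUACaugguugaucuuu
ssc-miR-323: gCACAUUAcacggucgaccucu
ssc-miR-382: aAGUUGUUcgugguggauucg

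The 17 members were 20 to 23 nt long, and their GC content ran from 23.8% for ssc-miR-369 to 60.0% for ssc-miR-432-3p. The median GC content was 45.5%, beside 47.6% for the other 238 porcine miRBase probes. None of the 17 shared its seed with any other of the 355 probes, including the other members. What links the members is the locus they are known from, not a common seed. Among all pairs of members, 5 shared a stretch of 8 or more bases. The longest stretch joined ssc-miR-376b and ssc-miR-376c, which differ by the single substitution C5A, counted from 1 at the 5′ end with ssc-miR-376b first.

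Signals are given as deposited, as linear intensities after the authors' background subtraction and LOWESS normalization, and each ratio has the Bama signal over the Landrace signal. Over the 355 probes the median was 114 on the Bama array and 95.1 on the Landrace array. A signal of 100, the top of the lowest class the study used, served as a floor: 185 of the 355 probes exceeded it on at least 1 array and 169 on both. Probes differ in how well they bind, so signals of different miRNAs describe the array and not numbers of molecules. The miRNAs typical of anterior pituitary endocrine cells were bright on both arrays, with ssc-miR-7 at 35031 on the Bama array and 42831 on the Landrace array.

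Of the 17 members, 11 (64.7%) exceeded the floor on at least 1 array, and the same 11 exceeded it on both. Among the other porcine miRBase probes, 140 of 238 (58.8%) exceeded it on at least 1 array. The 17 signals summed to 19788 on the Bama array and 20181 on the Landrace array, which was 2.84% and 3.00% of the summed signal of the arrays. The summed signal of the locus was thus 0.981 times as high in Bama minipigs as in Landrace pigs. Most of it came from ssc-miR-127 and ssc-miR-299, which together held 52.7% on the Bama array and 52.0% on the Landrace array. The median signal of the 11 members above the floor was 1108 on the Bama array and 945 on the Landrace array, lower than the 1475 and 1334 of the other miRBase probes above the floor.

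In the RTL1 block, 2 of the 4 members exceeded the floor. The signal of ssc-miR-127 was 5797 on the Bama array and 5659 on the Landrace array, the highest of the members on either array. The log2 ratio was 0.035, or 1.02-fold. The signal of ssc-miR-432-5p was 764 on the Bama array and 713 on the Landrace array, a log2 ratio of 0.099. Both ratios were close to 0, and their signs depended on the scaling of the arrays: scaling to the 75th percentile made both negative (-0.16 and -0.094), and quantile normalization and cyclic loess made that of ssc-miR-127 negative.

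The other arm of miR-432 and miR-136 gave signals near the bottom of the scale. The signal of ssc-miR-432-3p was 8.65 on the Bama array and 14.9 on the Landrace array. That of ssc-miR-136 was 0.393 and 0.872. Signals this low have no usable ratio, because the deposited values hold neither a background level nor the spread between spots and the study's detection calls were not used here, and they do not show that a miRNA was absent. Of the arms of miR-432, only the 5p arm was above the floor. For members without an arm suffix, the files do not state which arm the probe reads.

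In the cluster from miR-379 to miR-410, 9 of the 13 members exceeded the floor. Of these 9, 2 had a higher and 7 a lower signal in Bama minipigs, with cyclic loess turning the sign of ssc-miR-381 to give 3 and 6. Their summed signal with the 4 members below the floor was 13218 on the Bama array and 13793 on the Landrace array. The individual differences therefore ran in both directions within the cluster while its total was 0.958 times as high in Bama minipigs. Over all 185 probes above the floor on at least 1 array, 94 (50.8%) were higher in Bama minipigs. Of the 7 lower members, ssc-miR-381 and ssc-miR-299 had log2 ratios close to 0 (-0.031 and -0.062).

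In this cluster 4 members had a signal above 1000 on both arrays, and all 4 were lower in Bama minipigs under each scaling tried. The cut leaves out ssc-miR-369, which exceeded 1000 on the Bama array only and was higher in Bama minipigs. The share of all probes of like brightness that were lower was not counted. Only the share over all 185 probes above the floor, of which 50.8% were higher in Bama minipigs, stands beside this count. The signal of ssc-miR-299 was 4626 on the Bama array and 4829 on the Landrace array (log2 ratio -0.062), and that of ssc-miR-411 was 2298 and 2511 (log2 ratio -0.13). These values lay close together in the breeds. The signal of ssc-miR-323 was 1382 on the Bama array and 1922 on the Landrace array, a log2 ratio of -0.48. That of ssc-miR-382 was 1108 and 1517, a log2 ratio of -0.45. They were 1.39-fold and 1.37-fold lower in Bama minipigs, under the 2-fold limit.

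The signal of ssc-miR-369 was 1505 on the Bama array and 945 on the Landrace array. It was 1.59-fold higher in Bama minipigs (log2 ratio 0.67), the second-highest ratio among the members and also under the 2-fold limit. This miRNA is known for binding AU-rich elements such as that of the TNF transcript. It had the lowest GC content of the members, as given above.

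The signal of ssc-miR-758, known to repress the cholesterol transporter ABCA1, was 670 on the Bama array and 897 on the Landrace array (log2 ratio -0.42). It shares its last 11 bases with ssc-miR-411, shown in capitals here because a probe for one could bind part of the other.
ssc-miR-411: auguaacacGGUCCACUAAC
ssc-miR-758: uuugugaccuGGUCCACUAAC
Both miRNAs had the lower signal in Bama minipigs, and their log2 ratios differed by 0.29. Whether the probes read each other's miRNA was not tested. The signal of ssc-miR-381 was 386 on the Bama array and 394 on the Landrace array, a log2 ratio of -0.031, or 0.077 after cyclic loess.

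The largest differences in the locus were those of the 2 arms of miR-376a, and they ran in opposite directions. The signal of ssc-miR-376a was 969.5 on the Bama array and 342 on the Landrace array, 2.83-fold higher in Bama minipigs (log2 ratio 1.50). The signal of ssc-miR-376a*, the arm named as the minor one, was 188 on the Bama array and 372 on the Landrace array, 1.98-fold lower in Bama minipigs (log2 ratio -0.98, just short of the 2-fold limit). Precursors of the miR-376 family are known for adenosine-to-inosine editing in the brain, which the arrays do not read.

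The sequences of the arms are shown again with the longest stretch in which they are complementary in capitals, which for ssc-miR-376a is exactly its seed, bases 2 to 8, and for ssc-miR-376a* bases 13 to 19.
ssc-miR-376a: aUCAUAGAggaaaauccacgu
ssc-miR-376a*: guagauucuccuUCUAUGAguac
The log2 ratios of the arms differed by 2.48. This difference does not depend on a factor applied to a whole array, so it was the same after median scaling and scaling to the 75th percentile. It was 2.43 after quantile normalization, 2.62 after cyclic loess and 2.20 with 50 added to every signal. No replicate pool exists on the arrays against which to judge its size. The paper also measured miR-376a, but not the other arm, by qRT-PCR and describes the breed pattern as matching its array. Over the 169 probes above the floor on both arrays, the log2 ratio of ssc-miR-376a had rank 6 counted from the highest, and that of ssc-miR-376a* rank 5 counted from the lowest. Over the 185 probes above the floor on at least 1 array, these ranks were 12 and 8.

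The other probes of the miR-376 family were dim. The signal of ssc-miR-376c was 29.6 on the Bama array and 4.67 on the Landrace array, and that of ssc-miR-376b was 2.45 and 1.26. Both lay under the floor in each breed, so no ratio is given. No probe for another arm of miR-376b or miR-376c is among the members, so these signals do not describe such an arm. Each of them shares a stretch of 10 bases with ssc-miR-376a*, bases 9 to 18 of all these sequences, and none longer than that.
ssc-miR-376a*: guagauucUCCUUCUAUGaguac
ssc-miR-376c: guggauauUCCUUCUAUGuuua
The probes with this shared stretch did not give like signals, since ssc-miR-376a* exceeded the floor on both arrays and ssc-miR-376b and ssc-miR-376c on neither. Whether any of these probes read the miRNA of another was not tested. The last members of the cluster were ssc-miR-487b, with 52.1 on the Bama array and 55.9 on the Landrace array, and ssc-miR-494, with 1.26 and 2.16. Both were under the floor as well.

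By the fixed rule of size, 1 of the 11 members above the floor (9.09%), ssc-miR-376a, was 2-fold or more higher in Bama minipigs. Over all 185 probes above the floor, 24 (13.0%) were. In the other direction, 0 of the 11 were 2-fold or more lower, beside 7 of the 185 (3.78%). With scaling to the 75th percentile and with quantile normalization, ssc-miR-376a* passed the limit as well, at -1.17 and -1.14. Of the 11, 4 (36.4%) had a log2 ratio above 0, beside 94 of the 185 (50.8%). The median log2 ratio was -0.062 for the members and 0.025 for all probes above the floor, and the median size regardless of sign was 0.42 and 0.34. The counts of members past the limit are close to those of the array as a whole.

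Dimmer probes differed more between these arrays than brighter ones, so the members were also set beside probes of like brightness. Of the members, 6 had a mean signal above 1000 and up to 10000. Their median size of log2 ratio was 0.29, and that of all 85 probes in this class was 0.29. The other 5 had a mean signal above 100 and up to 1000, with a median size of 0.42 beside 0.45 for all 77 probes of the class. In the lower class 18 of the 77 probes (23.4%) were past the 2-fold limit in either direction.

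Markers of striated muscle, a tissue in which the locus is also active, did not run one way between the arrays. Of the 8 muscle miRNAs on the arrays 5 exceeded the floor on at least 1, with 3 of them 2-fold or more higher in Bama minipigs and 1 2-fold or more lower, and the list summed to 1538 on the Bama array and 667 on the Landrace array. The defining ssc-miR-1 gave 426 and 25.1, ssc-miR-133b 439 and 80.6, and ssc-miR-133a-3p 370 and 79.2. In contrast, ssc-miR-206 ran the other way with 117 and 278, ssc-miR-499-5p gave 175 and 192, and ssc-miR-208b was near 0 on both arrays (0.829 and 4.29). The median log2 ratio of the 5 muscle miRNAs above the floor was 2.23. Of the 4 blood-cell miRNAs on the arrays 2 exceeded the floor and 0 were past the limit, with sums of 5497 and 6026 and with ssc-miR-142-3p at 0.489 and 1.46. Of the 7 neural miRNAs 4 exceeded the floor and 1, ssc-miR-338, was 2-fold or more higher in Bama minipigs (169 and 63.4), while the list summed to 12998 and 12999. The part of muscle or other tissue in the ratio of ssc-miR-376a was not tested.

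The arrays also held 4 added probes that the study lists under names of the locus. Y-89, listed as miR-370, gave 605 on the Bama array and 724 on the Landrace array, a log2 ratio of -0.26. The precursor listed for it does not contain the mature sequence on either strand and is placed, with no build named, on a chromosome other than the one that holds DLK1 in Sscrofa11.1. The listed precursor therefore does not place Y-89 in the locus, and its mature sequence was not compared with miR-370 of other species here. It was not counted among the members because its probe name lacks the prefix ssc-miR-. Y-95, listed as miR-668, gave 74.6 and 64.1. Y-92, listed as miR-541, gave 0.601 and 1.22, and Y-94, listed as miR-665*, gave 1.47 and 3.98. Only Y-89 exceeded the floor.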

How the data were processed

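Small RNAs were poly(A)-tailed, tagged, stained with Cy5 and hybridized to custom µParaflo chips, 1 array for each pool of 3 pigs. Background subtraction, LOWESS normalization and averaging over repeat spots were done by the authors. The deposited table holds linear signal intensities from 0.00531 to 42831. Software versions and the handling of values near 0 are not given in the sources used here.

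Log2 ratios were computed from the deposited signals without further scaling, for probes above a signal of 100 on at least 1 array, and a rule of 2-fold was applied. With 1 array per breed there was no test. The authors' detection calls and spot SDs were not used. Every member is named. The members, lists and alternatives were chosen with earlier results of these data known. The blocks of the locus follow textbook knowledge. Mature sequences come from the study's probe lists.

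As alternatives, the arrays were scaled to their medians or 75th percentiles, or normalized in limma 3.58.1 (R 4.3.3) by quantiles or by 3 rounds of cyclic loess. An offset of 50 was also tried, and floors of 50, 200, 500 or none. The scalings, normalizations and offset, but not the floors, were also run on simulated data over 185 probes, where each recovered 20 of 20 changed probes. The planted changes were well beyond 2-fold, on probes of middle signal and with little noise. Their recovery therefore checks the code and does not show how smaller changes or dim probes would fare. Python 3.11.15, numpy 2.4.6, pandas 2.3.3 and scipy 1.17.1 were used. Counts within 1.5 times the main count and medians within 0.1 of the main median are treated as the same.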

Additional observations from a re-analysis of the deposited data

How the results depend on the processing

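No paired analysis was possible because each breed had 1 array, and for the same reason no replicate could be left out. Of 55 log2 ratios recomputed for the 11 members above the floor, 48 kept their sign and their side of the 2-fold limit, and 2, both of ssc-miR-376a*, passed the limit (-1.17 with the 75th percentile, -1.14 with quantile normalization). The sign turned for ssc-miR-127 (-0.16 with the 75th percentile, -0.038 with quantile normalization, -0.028 with loess), ssc-miR-432-5p (-0.094 with the 75th percentile) and ssc-miR-381 (0.077 with loess). The log2 ratio of ssc-miR-376a stayed above 1 in each of these settings, from 1.29 to 1.68. The count of members 2-fold lower rose from 0 to 1 with the 75th percentile and with quantile normalization, in both through ssc-miR-376a*. Without a floor it also rose to 1, but through ssc-miR-136 (0.393 on the Bama array and 0.872 on the Landrace array). The count of members 2-fold higher rose from 1 to 2 without a floor, through ssc-miR-376c (29.6 and 4.67). Both of these miRNAs had signals under 100 on each array, for which no ratio is otherwise given. With the 75th percentile all log2 ratios fell by 0.19, which left 2 members in place of 4 above 0 and took their median from -0.062 to -0.26, and quantile normalization moved it to -0.25. Over all probes above the floor, 24 higher and 7 lower became 21 and 11 with the 75th percentile and 21 and 10 with quantile normalization. Without the 20 brightest probes the members held 5.28% (Bama minipigs) and 5.83% (Landrace pigs) of the summed signal, and without a floor their median signal was 670 and 394. The cause of these changes was not tested beyond what each setting does by construction. The floor of 100 was a choice made here in place of the study's detection calls, which were not used, and it leaves 6 of the 17 members without a ratio.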
